A study of Mus musculus with 3 samples.

Results

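The genes described here encode the proteins of the cytosolic ribosome. Of the 32285 genes listed in the deposited matrices, 85 have a symbol that matches the naming pattern for small-subunit (Rps), large-subunit (Rpl) or stalk (Rplp) proteins, Rpsa or Fau, and 84 of these were taken as members because they held at least 100 unique molecular identifiers (UMIs, one per captured transcript) over the 3 libraries. The one left out, Rpl10l, held 0 UMIs. A further 2 members were hardly detected, Rpl3l with 131 UMIs and Rpl39l with 263. All 84 matched the GENCODE annotation of mm10, on 20 chromosomes, with 14 on chromosome 7 and 4 on X, and their genes were compact, with a median span of 3328.5 bases against 12298 over the listed genes.

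Cells came from the medial prefrontal cortex of mice, in 3 droplet libraries of 2 pooled mice each (estrus females, diestrus females and males), and the study asked how cycle stage and sex bear on gene expression there. For each library 15000 cells were loaded on the 10x Genomics system, no genotype, allele or treatment is named, and strain and age were left unstated in the sources used here. The label gives the cells as neurons of the area, but cells carrying the markers of 10 classes were present in every library at 50 cells or more, most of them glial or vascular. Cells were assigned to a class from marker genes that are not ribosomal protein genes, which left 11576 cells in estrus, 11326 in diestrus and 12746 in male.

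A ribosome is built from a small and a large subunit, each a scaffold of ribosomal RNA with many proteins bound once each, so cells make these proteins in roughly matched amounts. Their mRNAs share a pyrimidine-rich start, the terminal oligopyrimidine motif, through which the kinase complex mTORC1 and the RNA-binding protein Larp1 adjust their translation together. A few members have a second, similar gene, a paralog, whose product can take the same place in the ribosome or act outside it.

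The start regions of the members whose values stand out below are printed first, because the shared pyrimidine run lies there. Each line holds 60 bases of RefSeq sequence on GRCm38.p6, from 40 bases before the RefSeq start to 20 bases of the first exon, read along the gene's strand, with the longest run of C and T in capitals (the first one where 2 are equally long, as in Rps27l and Rpl36al).
Rpl22, chr4:152325686-152325745, plus strand: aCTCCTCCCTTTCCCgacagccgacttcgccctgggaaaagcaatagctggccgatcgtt
Rpl22l1, chr3:28805468-28805527, plus strand: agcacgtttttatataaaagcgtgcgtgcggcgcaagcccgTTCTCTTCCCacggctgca
Rps27, chr3:90213629-90213688, minus strand: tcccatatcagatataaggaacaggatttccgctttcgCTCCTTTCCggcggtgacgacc
Rps27l, chr9:66946046-66946105, plus strand: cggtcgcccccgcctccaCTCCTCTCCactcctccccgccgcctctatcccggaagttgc
Rpl36a, chrX:134585614-134585673, plus strand: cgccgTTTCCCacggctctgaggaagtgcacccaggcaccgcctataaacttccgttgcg
Rpl36al, chr12:69184048-69184107, minus strand: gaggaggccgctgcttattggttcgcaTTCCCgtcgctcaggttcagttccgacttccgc
Rps12, chr10:23787190-23787249, minus strand: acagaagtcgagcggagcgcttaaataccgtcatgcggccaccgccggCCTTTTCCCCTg
Rplp0, chr5:115559427-115559486, plus strand: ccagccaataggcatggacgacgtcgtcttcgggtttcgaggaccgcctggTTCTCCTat
Rpl13, chr8:123102310-123102369, plus strand: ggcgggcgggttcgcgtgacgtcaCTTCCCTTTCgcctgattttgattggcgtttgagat

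The run crosses or touches the start in Rps27, follows it in Rpl22l1, Rps12 and Rplp0, and lies upstream in Rpl22, Rpl13 and Rpl36a. In Rps27l both equal runs lie upstream, and in Rpl36al the second lies after the start. RefSeq and GENCODE starts differ by 72 bases in Rpl22l1, 66 in Rps12 and 16 in Rpl22 and Rpl36al, so the run's place relative to the transcript's first base is uncertain there. RefSeq windows were found for 64 of the 84 members among 20595 promoters. A run of at least 8 pyrimidines within these 60 bases occurred in 33 members (51.6%) against 23.7% of all promoters. In windows of 300 bases searched on both strands, the letters CCGGAAG, which hold the core bound by ETS factors, occurred in 25 members (39.1%) against 11% of all promoters, and AANATGGC, the core bound by YY1, in 13 members (20.3%) against 6.47%. These matches describe letters, not bound sites.

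Ribosomal protein transcripts took a larger part of the RNA in vascular cells and macrophages than in neurons and astrocytes. Summed over members, they made up 2.49% ± 0.431 (SD, n = 3 libraries) of nuclear-genome UMIs in astrocytes, 3.46% ± 0.631 in oligodendrocyte precursor cells (OPC), 3.55% ± 0.104 in glutamatergic neurons, 4.17% ± 0.361 in mature oligodendrocytes and 4.41% ± 0.149 in GABAergic neurons. Pericytes, which wrap capillaries, held 5.59% ± 0.387, microglia 7.28% ± 0.392, endothelial cells 8.62% ± 0.806, vascular smooth muscle cells 8.99% ± 0.642 and border-associated macrophages 11.01% ± 2.86. The ranges of the 3 libraries did not overlap between glutamatergic neurons and oligodendrocytes, GABAergic neurons and pericytes, pericytes and microglia, or microglia and endothelial cells. They did overlap between astrocytes and OPC, OPC and glutamatergic neurons, oligodendrocytes and GABAergic neurons, endothelial and smooth muscle cells, and smooth muscle cells and border macrophages, so the pooled ranges do not order these pairs. Within libraries OPC were above astrocytes in 3 of 3, glutamatergic neurons above OPC in 1 of 3, and the higher-mean class of the other 3 pairs above its neighbour in 2 of 3. Border macrophages stood at 7.77% in estrus against 13.2% in diestrus and 12.1% in male, with 68, 85 and 58 cells, and haemoglobin genes held 5.99% of their UMIs in estrus against 0.0526% and 0.0961%. The part of that difference in the ribosomal protein value was not tested. Microglial markers, which the gate for border macrophages ignored, summed there to between 37.0% and 56.8% of their microglial level. In male their sum was 12101 CPM against 11961 for the markers of the class itself. The part of this in the border macrophage values was not tested either.

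**Figure D1:**
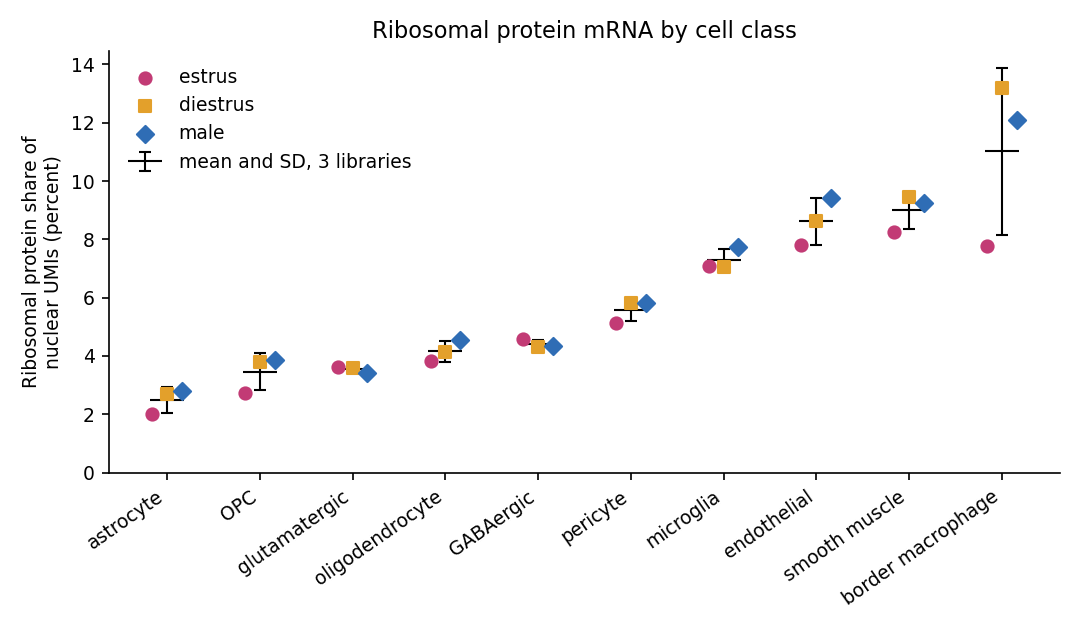
Ribosomal protein UMIs as a percent of nuclear-genome UMIs in 10 marker-gated cell classes, with 1 point per library and a bar for the mean and SD of 3 libraries. Astrocytes are lowest at 2.49% and border macrophages highest at 11.01%, where the estrus library (7.77%) lies apart from the others.

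Class differences gene by gene were tested on UMI sums per class and library with edgeR's quasi-likelihood test, with library as a block and Benjamini-Hochberg adjustment over all 17202 genes tested; a gene was called at an adjusted p under 0.05. A total of 83 members were tested, all but Rpl3l. The 3 libraries served as replicates although they differ in stage or sex and each pools 2 mice. With library as a block, p-values measure how far class differences vary from library to library, with each gene's spread estimated over all classes together. That spread may be technical. Levels are given as UMIs per 1000000 nuclear-genome UMIs (CPM). Such a value in summed cells cannot tell fewer transcripts per cell from more RNA of other kinds. Log2 differences were fitted with edgeR's scaling factors, which the CPM do not carry. A fitted difference can therefore depart in size from the CPM printed beside it.

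In microglia, the resident macrophages of brain tissue, 77 of 83 members were higher than in glutamatergic neurons and 1 was lower, with a median log2 difference of 1.18. Over all genes tested 38.7% were higher and 39.3% lower, with a median of -0.01. Apart from Rpl39l, which had few UMIs and is described below, the 3 largest differences were in Rps9, Rplp0 and Rps12. Rps9, a small-subunit protein near the entry channel for mRNA, was at 1755, 1204 and 1434 CPM in microglia of the estrus, diestrus and male libraries and at 332, 266 and 279.9 in glutamatergic neurons. Every microglial value was above every neuronal one, and the log2 difference was 2.45 (SE 0.179, edgeR adjusted p = 9.45e-13). Rplp0, the base of the ribosomal stalk that recruits elongation factors, was at 777, 525 and 589 CPM against 163, 113 and 105, a log2 difference of 2.45 (SE 0.201, edgeR adjusted p = 1.04e-11). Rps12 had 1252, 1344 and 1504 CPM against 247, 299 and 292, a log2 difference of 2.43 (SE 0.181). The groups did not overlap for either gene. Rpl22l1, a paralog described below, was the 1 member called lower.

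Endothelial cells showed the same direction in 81 of 83 members, with a median log2 difference of 1.38 against -0.03 over all genes, of which 35.6% were called higher and 37.5% lower (73.2% in either direction). Again Rpl22l1 was the 1 member called lower. Rps27l, a paralog of the small-subunit protein Rps27 and a known p53 target, had the largest difference apart from Rpl39l, at 2.91 (SE 0.136, edgeR adjusted p = 5.16e-17), with 192, 237 and 228 CPM in endothelial cells against 30.7, 33.1 and 32.2 in glutamatergic neurons. Rps12 (2.41, SE 0.181) and Rplp0 (2.39, SE 0.201) followed, so these 2 genes were, Rpl39l aside, among the 3 largest in both classes. Both comparisons use the same glutamatergic neurons. Scaling moved these medians little: with DESeq2 they were 1.13 in microglia and 1.33 in endothelial cells, and with library size alone 1.05 and 1.24.

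In astrocytes 50 of 83 members were lower than in glutamatergic neurons and 1 higher (all genes: 33.3% lower, 37.6% higher), with a median of -0.43 against 0.10 over all genes. The calls depended on the libraries and the gate: 24 members were called lower without the diestrus library, 4 were called higher without the estrus library, and under a stricter gate 0 were lower and 6 higher, with a median of 0.13. That gate kept 35 to 123 glutamatergic neurons per library. Rpl3, a core large-subunit protein near the peptidyl transferase centre, was at 274, 269 and 264 CPM in astrocytes and at 809, 509.9 and 459.8 in glutamatergic neurons. The groups did not overlap, and the log2 difference was -1.02 (SE 0.171, edgeR adjusted p = 6.47e-06), or -0.30 under the stricter gate, where it was not called (edgeR adjusted p = 0.36). Rps3a1 had -0.93 (SE 0.187), and -0.25 under that gate. Rps27l was the 1 member called higher, at 78.4, 92.4 and 88.2 CPM, a log2 difference of 1.51 (SE 0.132, edgeR adjusted p = 4.96e-11).

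OPC had 29 members lower and 5 higher than glutamatergic neurons (all genes: 29.5% and 26.4%), with a median of -0.29 against -0.08 over all genes, so the count of lower members lay near the share over all genes. The summed share was higher in OPC than in glutamatergic neurons in 2 of 3 libraries. Markers of other classes were also found in OPC: GABAergic markers summed to between 20.5% and 37.1% of their level in GABAergic neurons, with up to 3 of the list at 0, and glutamatergic markers to between 3.61% and 9.87% of their neuronal level. In astrocytes these sums were 5.29% to 10.8% and 3.45% to 10.8%. The part of this in the OPC and astrocyte results was not tested. Without the diestrus library 16 were lower and 3 higher, without the male library 3 were higher, and without the estrus library 12 were higher. The 3 highest were Rps27l (2.05, SE 0.137), Rpl13 (1.61, SE 0.165) and Rpl18 (0.77, SE 0.171), and the 3 lowest Rpl22l1 (-1.33, SE 0.152), Rpl3 (-1.02, SE 0.173) and Rpl38 (-0.87, SE 0.154). Under the stricter gate, which kept 3, 7 and 9 OPC, Rpl13 and Rpl22l1 were called among these 6 and the others were not, Rps27l at 1.73 (edgeR adjusted p = 0.0898) included. Rpl38, a small large-subunit protein known for its part in translating Hox mRNAs in embryos, was at 218, 505 and 438 CPM in OPC and at 432, 769 and 593 in glutamatergic neurons. Its ranges overlapped between the classes, while OPC were lower within each library.

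Between GABAergic and glutamatergic neurons the median log2 difference was 0.11 (all genes -0.14), the smallest of the 6 in size under this scaling only. It was 0.29 with DESeq2 and 0.31 with library size alone, where OPC against glutamatergic neurons had -0.15 and -0.11. The summed share was higher in GABAergic neurons, at 4.31% to 4.58% against 3.43% to 3.62%, without overlap. Called members numbered 3 higher and 0 lower (all genes: 12.2% and 22%), and 6 members had an unadjusted p under 0.05. Rps27l (0.47, SE 0.133), Rps12 (0.47, SE 0.173) and Rpl7l1 (0.34, SE 0.123) were the 3 called. The number called rested on the scaling, with 36 higher under DESeq2 and 27 with library size alone, and on the filter for low counts, without which 0 were called; leaving out the estrus library gave 8 and the male library 1.

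Within the oligodendrocyte lineage, mature oligodendrocytes had higher values than OPC in 74 of 83 members and a lower value in 1, with a median of 0.71 against 0.14 over all genes (25.5% higher, 22.6% lower). With library size alone 34 were higher and 3 lower, and the median was 0.30. The fitted differences of single members carry edgeR's scaling factors and lie above those that the printed CPM give on average. Rps3, a small-subunit protein that also takes part in DNA repair, rose from 239.6, 305 and 256 CPM in OPC to 619.6, 503 and 562 in oligodendrocytes, a log2 difference of 1.47 (SE 0.176, edgeR adjusted p = 5.39e-08). Rpsa, which also acts as a laminin receptor, rose from 308, 466 and 451 CPM to 844, 754 and 893 (1.42, SE 0.203), and Rplp0 from 174, 243 and 212 to 493, 377 and 419 (1.40, SE 0.199). Each of these 3 was higher in oligodendrocytes in all 3 libraries, without overlap. Rpl13 was the 1 member called lower.

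**Figure D2:**
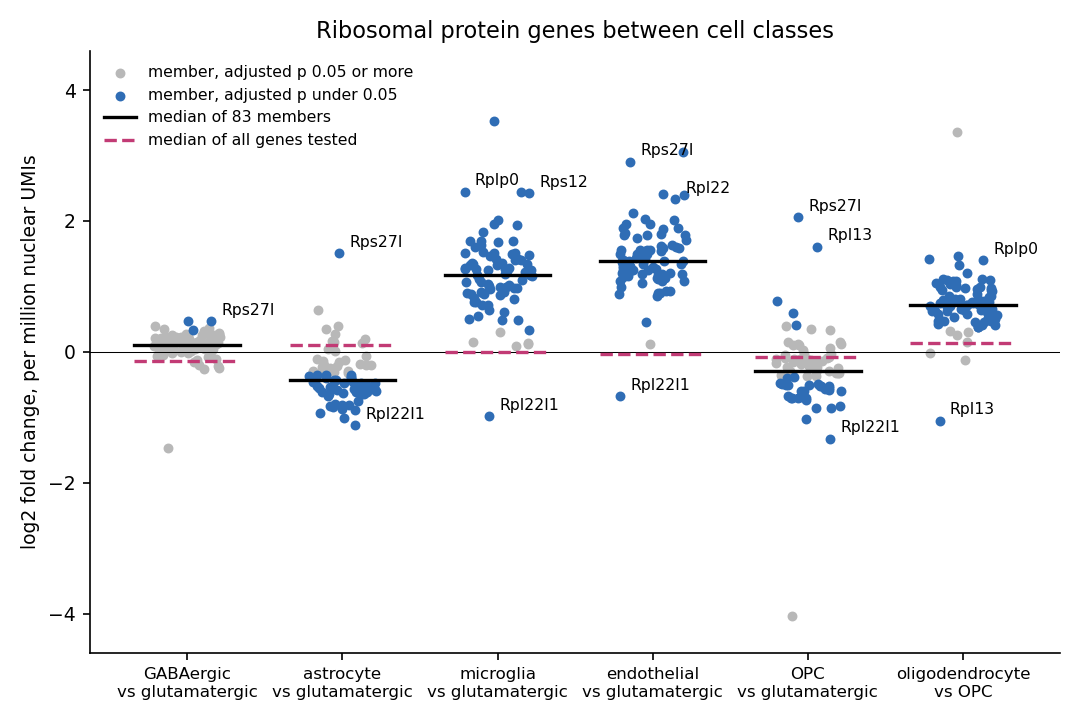
Log2 differences of the 83 tested ribosomal protein genes in 6 class comparisons, fitted on nuclear UMIs with edgeR's scaling factors. Each point is 1 gene, blue where edgeR's adjusted p is under 0.05. Medians of members (black) and of all genes (dashed) are drawn. Points for microglia and endothelial cells against glutamatergic neurons centre at 1.18 and 1.38, those for astrocytes at -0.43, Rpl22l1 and Rps27l lie outside most of the others, and the far points, among them -4.04, 3.53 and 3.36, are Rpl39l, which had few UMIs.

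Scaling by other means shifted the median of all genes by as much as -0.40 (oligodendrocytes against OPC, library size alone) and 0.22 (OPC against glutamatergic neurons, DESeq2). Taken relative to the all-gene median, members stood at 1.18 to 1.19 in microglia, 1.41 in endothelial cells, -0.54 to -0.53 in astrocytes, -0.28 to -0.21 in OPC, 0.23 to 0.25 in GABAergic neurons and 0.56 to 0.61 in oligodendrocytes against OPC under the 3 scalings. No median of the members turned its sign with the scaling. Values of single members may be touched by counting. A total of 22 members overlap another listed gene, all on the opposite strand except Rpl19, and the sources used here do not say whether the authors' counting used strand or introns. Ribosomal protein genes also have many processed copies in the genome, and the splitting of reads between near-identical copies is uncertain; leaving out the 16 members with a paralog or a listed pseudogene changed the microglial, endothelial and oligodendrocyte counts of higher members by less than 1.5 times.

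Members were also compared with the total of ribosomal protein UMIs as the scale, which shows who differs beyond the shift of the whole set. On this scale 21 members were higher and 24 lower in microglia (all genes: 18.9% and 63.5%), 20 and 18 in endothelial cells (14.7% and 71%, or 85.7% in either direction), 15 and 22 in OPC (30.8% and 21.9%, or 52.7%), 15 and 11 in astrocytes (48.6% and 22.4%), and 2 and 3 in GABAergic neurons (9.56% and 23.4%) against glutamatergic neurons. Oligodendrocytes had 20 higher and 10 lower than OPC (9.77% and 41.4%, or 51.2%). Background shares on this scale follow the set's own shift, so they do not bear on these counts. Without the diestrus library the members called in either direction numbered 27 (microglia), 21 (endothelial cells), 15 (OPC), 11 (astrocytes), 0 (GABAergic neurons) and 9 (oligodendrocytes against OPC). Without the male library they numbered 20 (endothelial cells), 17 (OPC), 14 (astrocytes), 0 (GABAergic neurons) and 8 (oligodendrocytes against OPC). In microglia Rps9 (1.28, SE 0.121), Rplp0 (1.28, SE 0.133) and Rps12 (1.26, SE 0.124) were highest. Rpl22l1 (-2.13, SE 0.150), Rpl41 (-1.07, SE 0.116) and Rpl31 (-1.04, SE 0.139) were lowest there. In endothelial cells the lowest were Rpl22l1 (-2.07, SE 0.150), Rpl36al (-1.27, SE 0.132) and Rpl3 (-0.95, SE 0.125).

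Across the 10 classes the share a member takes of ribosomal protein UMIs varied by an SD of 0.22 on the log2 scale in the median over 82 members, next to a mean SD between libraries of 0.20. Class SDs exceeded library SDs in 52 of 82. The library SD also holds shifts that all classes of a library share, which cancel between class means. The count therefore does not show which members differ between classes. The 5 members that varied most between classes were Rpl22l1 (0.84), Rps27l (0.81), Rpl7l1 (0.61), Rpl13 (0.56) and Rplp0 (0.54), of which 3 are paralogs. The 5 that varied least were Rpl34 (0.09), Rpl29 (0.11), Rps15a (0.11), Rpl26 (0.11) and Rps15 (0.11). Rps29, a small zinc-binding protein of the small subunit, was highest in border macrophages, where it reached 3355, 8099.9 and 5633 CPM against 436, 749 and 656 in glutamatergic neurons, and was singled out after its values were seen. At the steady end Rpl34 spanned 1.15% to 1.36% of ribosomal protein UMIs as class means.

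**Figure D3:**
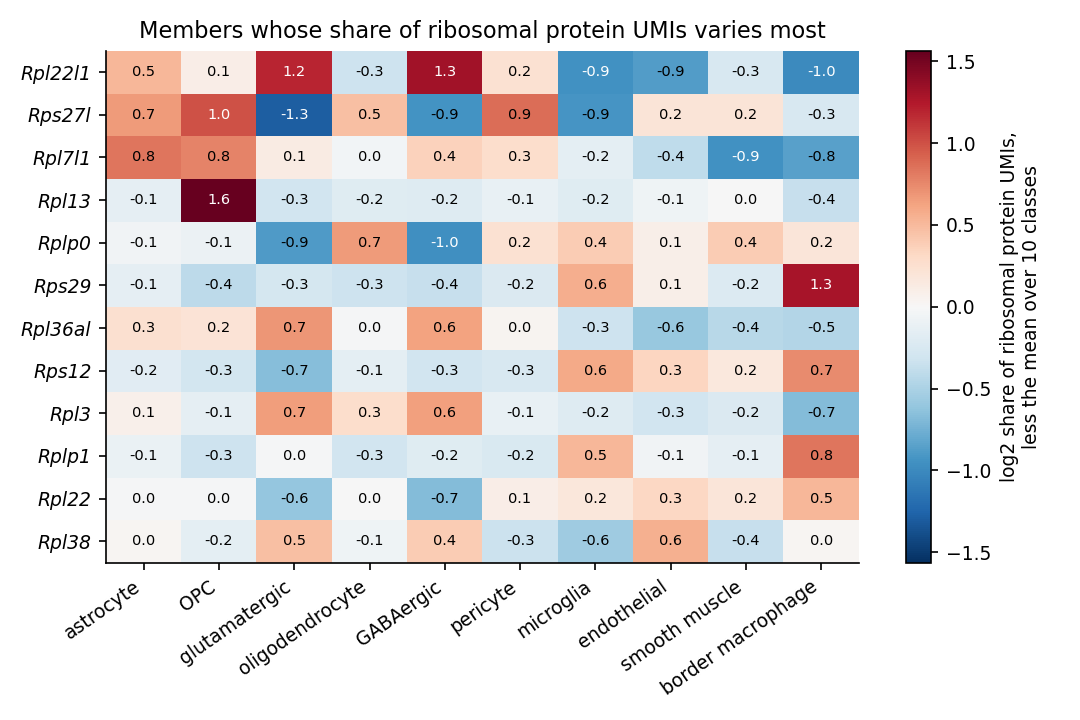
Share of ribosomal protein UMIs per class in log2, less the mean over 10 classes, for the 12 members that vary most; red is above and blue below the mean. Rpl13 stands out in OPC, at 1.6 above its mean, Rpl22l1 is high in both neuron classes, and Rps29 is high in border macrophages.

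Rpl13, a large-subunit protein (chr8:123102350-123105244, plus strand), took a larger share of ribosomal protein UMIs in OPC than in every other class. It was at 3122, 2239 and 2933 CPM in OPC of the estrus, diestrus and male libraries, against 943, 717 and 713 in glutamatergic neurons and 1071, 889 and 1017 in oligodendrocytes. Every OPC value was above every value of those 2 classes. In CPM other classes came close or overlapped, with 2645, 2373 and 2241 in smooth muscle cells, 1874, 2426 and 2549.7 in border macrophages and 2461, 1967 and 2240.1 in endothelial cells. Relative to ribosomal protein UMIs it held 11.4%, 5.92% and 7.58% in OPC, while in the other 9 classes it held between 1.84% and 3.20% in any library. On this scale the log2 difference was 1.87 against glutamatergic neurons (SE 0.129, edgeR adjusted p = 1.24e-12) and -1.76 for oligodendrocytes against OPC (SE 0.129, edgeR adjusted p = 4.31e-12). Fitted on nuclear UMIs with edgeR's scaling factors, the difference of oligodendrocytes against OPC was -1.05 (SE 0.163). The printed CPM, which lack these factors, give a larger fall from OPC to oligodendrocytes in each library. Under the stricter gate the fitted difference was -0.33 and was not called (edgeR adjusted p = 0.49). The difference was seen in single cells. Among OPC with at least 50 ribosomal protein UMIs (144, 209 and 195 cells), the median cell gave 11.1%, 6.27% and 7.59% of them to Rpl13, with quartiles of 8.60% and 13.6% in estrus. Glutamatergic neurons of the estrus library had a median of 2.61% and a 95th percentile of 3.90%, below the 5th percentile of OPC (5.62%). In estrus the 95th percentiles of astrocytes (6.13%) and pericytes (5.98%) lay above that OPC value, and those of the remaining classes below it. In diestrus and male the OPC 5th percentiles (1.88% and 2.90%) lay inside the neuronal range.

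The paralog pairs split by class. Rpl22 binds RNA on the large subunit, and Rpl22l1 can take its place; the 2 are known to act in opposite ways on splicing and on each other's level. In glutamatergic neurons Rpl22l1 (chr3:28805436-28807424) gave 75.2% ± 1.56 (SD, n = 3 libraries) of the pair's UMIs, and in GABAergic neurons 77.5% ± 2.19. It gave 56.0% ± 1.71 in astrocytes, 48.7% ± 3.36 in OPC, 41.3% ± 3.25 in oligodendrocytes, 48.9% ± 3.96 in pericytes and 39.2% ± 1.09 in smooth muscle cells. The lowest shares were in microglia (28.8% ± 4.82), endothelial cells (27.7% ± 4.46) and border macrophages (23.6% ± 4.39). Both neuron classes lay above every non-neuronal class without overlap of libraries. Whether both genes are captured and counted equally well was not tested, so an even split need not mean equal transcript numbers.

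Both partners moved. Rpl22l1 was at 357, 491 and 413 CPM in glutamatergic neurons and at 129.8, 217 and 262 in microglia, without overlap, a log2 difference of -0.98 (SE 0.146, edgeR adjusted p = 7.72e-07). In endothelial cells it was at 149, 275 and 339 CPM, all below the neuronal values (-0.67, SE 0.145, edgeR adjusted p = 0.000156). Under the stricter gate these differences were -0.35 and -0.07 and were not called (edgeR adjusted p = 0.24 and 0.84), while relative to ribosomal protein UMIs they were called under that gate too, at -1.99 and -1.95. Rpl22 rose from 127, 147 and 138 CPM in glutamatergic neurons to 424, 503 and 537 in microglia (1.95, SE 0.159) and to 503, 685 and 732 in endothelial cells (2.34, SE 0.161). Neuronal markers were also found in these classes. The 8 glutamatergic markers summed to 5.21%, 10.9% and 14.3% of their neuronal level in microglia of the estrus, diestrus and male libraries, and to 5.42%, 10.1% and 16.2% in endothelial cells, with no marker at 0. The order of the libraries is that of the Rpl22l1 share in microglia (23.4%, 30.1% and 32.8%), and its part in the residual Rpl22l1 was not tested.

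Rps27 and Rps27l, which differ at few residues and take the same place in the small subunit, gave a different order of classes. The Rps27l share (chr9:66946086-66949516) was highest in OPC at 37.6% ± 6.20 (SD, n = 3 libraries), followed by astrocytes (25.3% ± 7.05), pericytes (25.2% ± 5.20) and oligodendrocytes (24.7% ± 4.85). It was 19.0% ± 2.36 in smooth muscle cells, 16.9% ± 3.58 in endothelial cells, 15.1% ± 5.24 in border macrophages, 11.1% ± 2.63 in GABAergic neurons, 10.6% ± 2.45 in glutamatergic neurons and 9.58% ± 1.54 in microglia. The OPC range (31.9% to 44.2%) overlapped that of astrocytes (20.3% to 33.4%). In CPM, OPC had 126, 158 and 174 of Rps27l against 30.7, 33.1 and 32.2 in glutamatergic neurons, while Rps27 itself was at 158, 337 and 299.7 against 199.7, 354 and 293, overlapping ranges. In microglia both genes rose: Rps27 was at 589.8, 1009.8 and 878 CPM, a log2 difference of 1.68 (SE 0.159), and Rps27l at 72.9, 87.1 and 95.3 (1.53, SE 0.131). Estrus had the highest Rps27l share in each of these 10 classes.

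Rpl36a, which is X-linked, and its intron-poor copy Rpl36al on chromosome 12 split more evenly. Rpl36al held 57.9% ± 1.92 (SD, n = 3 libraries) in glutamatergic neurons and 57.7% ± 2.50 in GABAergic neurons. Microglia (46.5% ± 1.72) and endothelial cells (40.03% ± 1.67) lay below both without overlap. Ranges in astrocytes (50.8% to 57.8%), OPC (47.3% to 58.9%) and oligodendrocytes (52.0% to 57.6%) overlapped those of both neuron classes. Rpl7l1, a nuclear relative of Rpl7 with a known part in ribosome assembly, held 17.4% ± 1.89 of its pair in OPC and 16.7% ± 1.97 in astrocytes, against 12.97% ± 0.971 in glutamatergic neurons, 8.14% ± 0.226 in oligodendrocytes, 6.93% ± 0.323 in endothelial cells and 4.77% ± 0.549 in smooth muscle cells. Relative to ribosomal protein UMIs, Rpl7l1 was lower in oligodendrocytes than in OPC by a log2 difference of -0.83 (SE 0.142, edgeR adjusted p = 1.63e-05), and so was Rpl10a at -0.70 (SE 0.129).

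**Figure D4:**
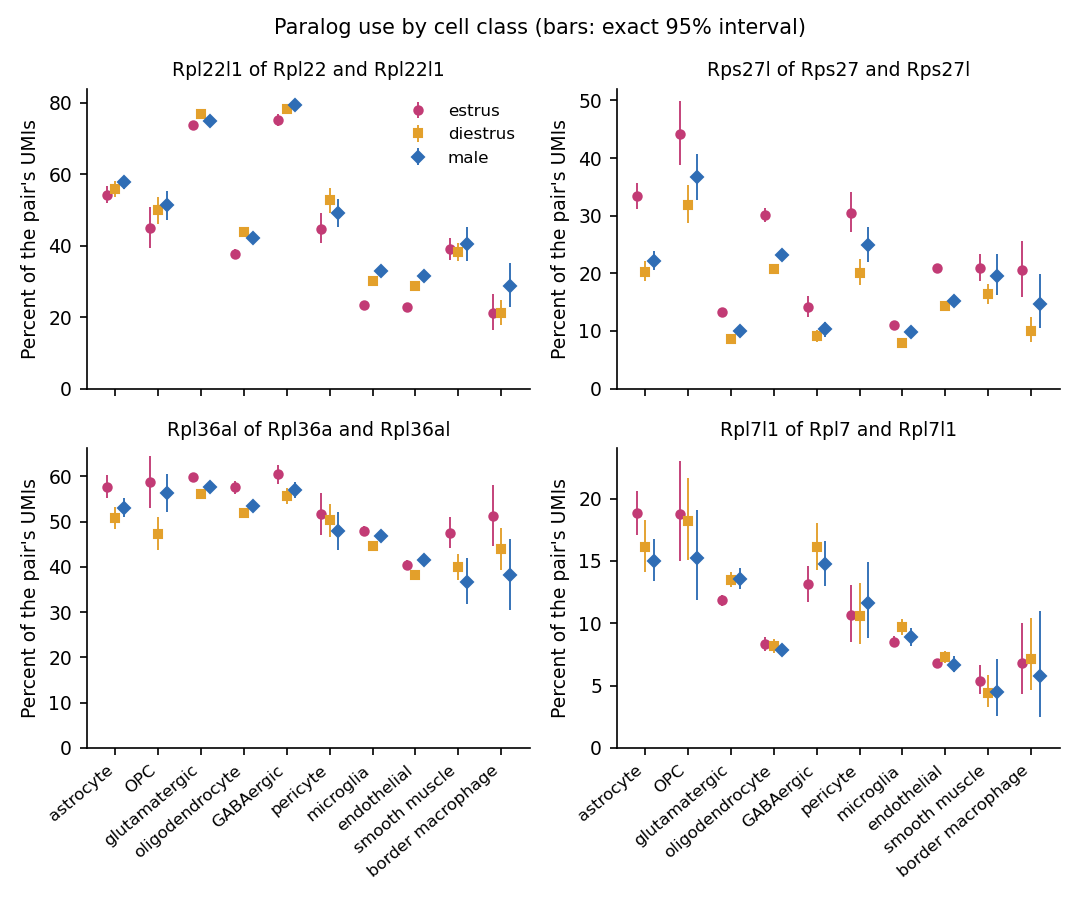
Share of a paralog pair's UMIs that came from the second gene, per class, with 1 point per library and bars for the exact 95% binomial interval (counting error only). Rpl22l1 falls from 75.2% in glutamatergic neurons to 27.7% in endothelial cells, and Rps27l peaks at 37.6% in OPC.

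The other paralogs were close to silent. Rpl3l, known from heart and skeletal muscle, had 131 UMIs in all, of which 39 lay in glutamatergic neurons and 29 in astrocytes, where it reached 1.66, 1.26 and 1.66 CPM and 0.565% ± 0.0860 (SD, n = 3 libraries) of the Rpl3 pair. In smooth muscle cells 2, 3 and 1 UMIs gave 1.49, 2.57 and 2.58 CPM, with exact Poisson intervals of 0.181 to 5.396, 0.530 to 7.51 and 0.0654 to 14.4, too few to set beside the other classes. Its glutamatergic level was 0.360, 0.304 and 0.263 CPM. With 12, 6 and 11 UMIs in astrocytes, the exact Poisson intervals of the astrocyte level (0.856 to 2.89, 0.462 to 2.74 and 0.831 to 2.98 CPM; counting error only) lay above the neuronal intervals in estrus and male and overlapped in diestrus, where the neuronal upper bound was 0.510. Rpl39l, known from testis, was seen mostly in microglia (45, 32 and 11 UMIs; 2.45, 2.67 and 1.27 CPM) and endothelial cells (44, 13 and 8 UMIs; 2.34, 1.08 and 1.27 CPM), and held at most 0.276% of its pair as a class mean. In glutamatergic neurons it had 30, 2 and 0 UMIs; the count of 0 in male allows up to 0.113 CPM (3 counts). Its fitted differences rest on so few counts that no fold is given. Rpl10l had 0 UMIs beside X-linked Rpl10, which allows up to 0.06 CPM in estrus glutamatergic neurons. Rps4l was not analysed here.

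Other genes of the ribosome and of translation were compared from lists chosen with earlier results of these data known. Rack1, a scaffold on the small subunit, falls outside the naming pattern. It was higher in microglia (1.88, SE 0.161) and endothelial cells (2.03, SE 0.162) than in glutamatergic neurons, and higher in oligodendrocytes than in OPC (0.68, SE 0.162). The list counts that follow are to be read against the shares over all genes, which were 38.7% higher and 39.3% lower in microglia, 35.6% and 37.5% in endothelial cells, 26.4% and 29.5% in OPC, 37.6% and 33.3% in astrocytes, 12.2% and 22% in GABAergic neurons, and 25.5% and 22.6% in oligodendrocytes against OPC. Of 35 translation factors, 20 were higher and 4 lower in endothelial cells (median 0.41), and 6 higher and 12 lower in microglia, where the median of -0.06 lay near that of all genes (-0.01). In oligodendrocytes against OPC 29 were higher and 0 lower (median 0.58). Astrocytes had 1 higher and 21 lower and OPC 1 higher and 18 lower, against glutamatergic neurons. Eef1a1, which delivers tRNA to the ribosome, rose in microglia (1.19, SE 0.174) and endothelial cells (1.27, SE 0.174), while Eef1a2, its neuronal and muscle form, fell by 2.71 and 2.84 on the log2 scale. Eef1d, a guanine exchange subunit for them, rose by 2.03 and 2.11.

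Of 18 other genes with a terminal oligopyrimidine start, 9 were higher and 2 lower in microglia (median 0.49) and 14 higher and 1 lower in endothelial cells (median 1.03), Tpt1 among them at 1.45 (SE 0.197) and 2.11 (SE 0.201). The list shares Rack1 and several factors with the genes above. Of 31 ribosome biogenesis genes, 7 were higher and 16 lower in microglia (median -0.33), 4 and 10 in endothelial cells (-0.26), 0 and 14 in OPC (-0.28), 1 and 19 in astrocytes (-0.54), 2 and 5 in GABAergic neurons (-0.09), and 5 and 1 in oligodendrocytes against OPC (0.21). The lower counts in endothelial cells and GABAergic neurons lay under the share over all genes. Nhp2, a protein of the guide particles that modify ribosomal RNA, was lower in microglia (-1.36, SE 0.171), endothelial cells (-1.10, SE 0.169), astrocytes (-1.47, SE 0.175), OPC (-1.31, SE 0.190) and GABAergic neurons (-1.29, SE 0.174) than in glutamatergic neurons. Of 78 mitochondrial ribosomal protein genes, 3 were higher and 62 lower in microglia (median -0.54), 8 and 26 in endothelial cells (-0.18), 3 and 44 in OPC (-0.47), 10 and 28 in astrocytes (-0.18), 5 and 5 in GABAergic neurons (-0.09), and 35 and 2 in oligodendrocytes against OPC (0.33). The endothelial count of lower genes lay under the share over all genes, and the microglial one above it. In microglia, then, the 2 kinds of ribosomal protein genes had medians of opposite sign, 1.18 and -0.54. Among 16 genes of mTORC1 and translation control, 6 were higher and 4 lower in microglia, 4 and 3 in endothelial cells, 4 and 4 in OPC, 7 and 3 in astrocytes, 3 and 2 in GABAergic neurons and 4 and 3 in oligodendrocytes against OPC, none of which in microglia and endothelial cells lay above the shares over all genes. Myc was higher in microglia (3.03, SE 0.281) and lower in endothelial cells (-1.91, SE 0.417).

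Between libraries there was 1 library per group and so no test; ratios compare these libraries and their 95% exact conditional intervals cover counting error only. In glutamatergic neurons 44 of 82 measured members were higher in estrus than in diestrus (all genes: 53.2%), 48 higher than in male (all genes: 50.6%), and 71 higher in diestrus than in male (all genes: 48.2%). Median log2 ratios were 0.02, 0.07 and 0.05, and with a median-of-ratios scale the first was -0.0044. Corrected for the median of genes of like gene span, all 3 turned sign, to -0.24, -0.21 and -0.0092. These medians hide a spread, which in the pairs with estrus rose with the coding length of the member. For the 10 members with a coding sequence under 300 bases the median ratio of estrus over diestrus was -0.83, with 0 of 10 higher. It was -0.19 for 30 members of 300 to under 450 bases, 0.28 for 19 of 450 to under 600 bases, and 0.48 for 23 of 600 bases or more, with 22 of 23 higher. Estrus over male gave -0.59, -0.10, 0.27 and 0.52 for the same groups, and diestrus over male 0.22, 0.06, 0.02 and 0.04.

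In the pairs with estrus the rise with coding length was present in each of the 10 classes. Long members were not high in estrus in every class. For estrus over diestrus at 600 bases and over, OPC had a median of -0.17 (7 of 23 higher). Border macrophages had -0.35 (3 of 22) and astrocytes 0.0092 (12 of 23). Spearman's correlation of coding length and log2 ratio across members lay between 0.825 and 0.917 (81 to 82 members) for estrus over diestrus, and between 0.744 and 0.916 (80 to 82) for estrus over male. For diestrus over male it lay between -0.555 and -0.197. With spliced transcript length in place of coding length it was weaker in the pairs with estrus, at 0.4997 to 0.606 and 0.528 to 0.623. For diestrus over male it then lay between -0.334 and 0.0460. Spliced length was that of 1 annotated transcript per gene, in some members long beside the coding sequence (Rps15a 5130 against 390 bases, Rps20 3706 against 357). Whether the counted transcripts have that length was not tested, so the weaker values do not show which length the ratios follow. These correlations are descriptions: members share their libraries, and the pairs with estrus share that library. The SD of member ratios was 0.428 to 0.487 in the first pair, 0.384 to 0.447 in the second and 0.100 to 0.205 in the third. In the class comparisons above, coding length and log2 difference had correlations of -0.10 to 0.27 across 83 members. Over 10 classes, 33 of 81 members lay below and 31 above the class median of estrus over diestrus in every class.

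**Figure D5:**
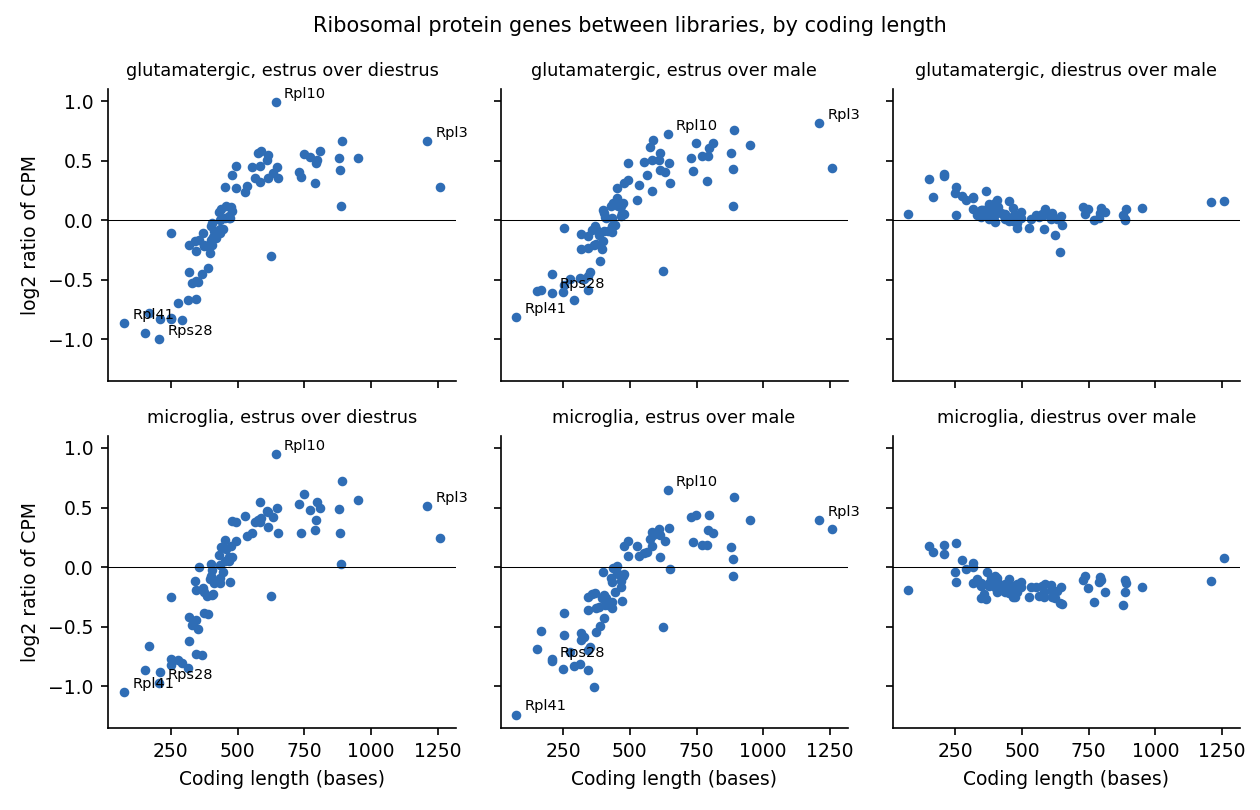
Log2 ratio of CPM between libraries against coding length in bases (linear axis) for each member, in glutamatergic neurons and microglia. Points rise with length in the 2 pairs that hold estrus, from a median of -0.83 under 300 bases to 0.48 at 600 bases and over in glutamatergic neurons, and show no such rise for diestrus over male.

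At the short end, Rpl41, whose product is among the smallest proteins known (coding length 75 bases), had 631, 1149.6 and 1108 CPM in estrus, diestrus and male glutamatergic neurons. Its log2 ratio of estrus over diestrus was -0.86 (interval -0.89 to -0.85), and it was -1.05 in microglia. Rps28 (207 bases) had 163, 327 and 249.5 CPM, a ratio of -0.998 (interval -1.04 to -0.96), and -0.97 in microglia. At the long end, Rpl5 (891 bases), which carries the smallest ribosomal RNA to the large subunit, had 332, 209 and 196 CPM in glutamatergic neurons, a ratio of 0.67 (interval 0.63 to 0.71), and 0.72 in microglia. Rpl3 (1209 bases) had 809, 509.9 and 459.8 CPM, a ratio of 0.66. So in glutamatergic neurons and microglia the estrus library was low for short members and high for long ones within the same cells. Among the members that left this order were Rpl10 (642 bases), with 418, 209.9 and 253 CPM and the highest ratio of all at 0.99 (interval 0.96 to 1.03), and Rps27l (252 bases) at -0.11. Other genes showed a like trend at the short end when grouped by spliced transcript length: in glutamatergic neurons, transcripts under 500 bases had median ratios of -0.47 over 39 other genes and -0.52 over 14 members, and in microglia -0.92 over 42 and -0.57 over 14. Grouped by gene span instead, all genes ran the other way in neurons: over 10 groups of equal size, the median ratio fell from 0.28 in the group with the shortest spans to -0.27 in that with the longest in glutamatergic neurons, and from 0.36 to -0.43 in GABAergic neurons. Library and group cannot be told apart here, as each group is 1 library, and the part of library preparation in these ratios was not tested.

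In astrocytes, OPC, border macrophages and smooth muscle cells the median member stood lower in estrus than in diestrus, with fewer members higher than among all genes. In smooth muscle cells long members went the other way, with a median of 0.26 at 600 bases and over (21 of 23 higher). Members under 300 bases had -1.03 there. Median ratios of estrus over diestrus were -0.28 in astrocytes (13 of 82 higher; all genes 48.4%), -0.50 in OPC (8 of 82; 51%), -0.64 in border macrophages (3 of 81; 40.2%) and -0.16 in smooth muscle cells (31 of 82; 54%). They were -0.15 in pericytes (35 of 82; 46.6%), -0.10 in endothelial cells (35 of 82; 37.6%, and a median of 0.0095 with a median-of-ratios scale), -0.09 in oligodendrocytes (34 of 82; 42.4%), 0.04 in microglia (45 of 82; 40.5%) and 0.12 in GABAergic neurons (49 of 82; 50.6%). In pericytes, endothelial cells and oligodendrocytes the counts lay near the share over all genes. Corrected for gene span, the GABAergic median turned to -0.23.

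For estrus over male the medians were -0.41 in astrocytes (8 of 82 higher; all genes 42.7%), -0.47 in OPC (6 of 82; 47.7%), -0.61 in border macrophages (4 of 80; 44.2%), -0.26 in endothelial cells (28 of 82; 43.4%) and -0.23 in oligodendrocytes (26 of 82; 37.9%). Smooth muscle cells (-0.18; 30 of 81; 52%), pericytes (-0.16; 32 of 82; 48.5%) and microglia (-0.11; 32 of 82; 48.1%) lay closer to 0, and GABAergic neurons above it (0.09; 47 of 82; 45.8%). For diestrus over male fewer members were higher in microglia (9 of 82, median -0.16; 51.6%), endothelial cells (11 of 82, -0.14; 50.3%), oligodendrocytes (8 of 82, -0.14; 40.5%) and astrocytes (22 of 82, -0.07; 40.7%), and the other medians lay between -0.03 and 0.09: OPC (37 of 82; 42.9%), GABAergic neurons (33 of 82; 43.8%), pericytes (37 of 82; 50%), smooth muscle cells (44 of 81; 51.2%) and border macrophages (55 of 81; 55.5%). With the median-of-ratios scale the medians for OPC and GABAergic neurons in this pair turned to 0.016 and 0.010. Corrected for gene span, those of microglia (0.016), endothelial cells (0.021), astrocytes (0.040), OPC (0.15) and GABAergic neurons (0.023) turned sign in this pair, and for estrus over male those of GABAergic neurons (-0.20) and microglia (0.033) did.

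Of the 4 X-linked members, Rpl10 was higher in estrus than in male in 9 of 10 classes (median 0.50) and higher in diestrus than in male in 0 of 10 (median -0.28). Rpl39 was higher in 0 of 10 (-0.88) and in 10 of 10 (0.30), Rpl36a in 0 of 10 (-0.71) and 8 of 10 (0.01), and Rps4x in 5 of 10 (0.04) and 2 of 10 (-0.05). No X-linked member was on the same side of male in both female libraries in all 10 classes.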

How the data were processed

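The deposited matrices hold whole-number UMI counts per gene and barcode for 3 libraries, made with Cell Ranger by the authors against mm10. The submitters' processing notes name version 3.0.2 and the file header names 7.0.0. The files held 14476 (estrus), 18052 (diestrus) and 19555 (male) barcodes with 152291602, 144738154 and 115632520 UMIs, and 48 to 61 barcodes were shared by any 2 libraries. Cells with at least 500 genes and at most 15% mitochondrially encoded UMIs were kept (12981, 14855 and 16344). A cell joined a class with at least 3 of its markers detected and a mean marker score of at least 0.5, unless another class reached 0.5 of that score. Cells of 2 classes (1240, 2061 and 2015) were left out, which stood in for a doublet caller. The gate for border macrophages ignored the microglial list.

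Counts were summed per class and library and fitted with edgeR 4.0.16 in R 4.3.3 (quasi-likelihood test, terms for class and library, filterByExpr, Benjamini-Hochberg over 17202 genes) on 2 scales, nuclear UMIs with TMM factors and ribosomal protein UMIs. The label that ties samples across classes is the library itself, so the block rests on a shared library and its pooled mice, not on shared cells. CPM for levels were not TMM-scaled. Ratios between libraries used 1 CPM added to each side, members with at least 100 UMIs and a mean of 20 CPM, and no test. Scripts were tested on simulated counts with planted changes.

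Named genes were the paralog pairs, up to 3 called members at each end per comparison and scale with 1 sign in all 3 libraries, the 3 highest and lowest library ratios in glutamatergic neurons and microglia, the 5 members that vary most and least between classes, and up to 4 called genes per list. The members, lists and rules were chosen with earlier results of these data known. Rps27l was singled out as an exception to the length order after its values were seen. Some results are not reported here. Alternatives were DESeq2 1.42.0, other scales, filters and gates, and leaving out each library.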

Additional observations from a re-analysis of the deposited data

Results flagged for a closer look

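The medians of the members differed in sign between classes for the same pair of libraries. In GABAergic neurons the median log2 ratio of estrus over diestrus was 0.12, and in border macrophages it was -0.64. For estrus over male the medians were 0.094 in GABAergic neurons and -0.61 in border macrophages. For diestrus over male they were 0.087 in border macrophages and -0.16 in microglia. With 1 library per group, these differences between classes were not tested. The GABAergic sign also turned with the processing: corrected for gene length the medians were -0.23 and -0.20, and the stricter gate gave -0.19 for estrus over male. Corrected for gene length the microglial median for diestrus over male was 0.016. Border macrophages rest on 68, 85 and 58 cells, and haemoglobin genes held 5.99% of their UMIs in the estrus library; the part of that in the ratios was not tested.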

How the results depend on the processing

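Of 132 alternative counts of members called on the CPM scale 96 stayed within 1.5 times the reported one, of 54 per ribosomal protein UMI 23, of 1210 values of named members 1017 kept direction and call, and of 90 class shares 74 and of 166 library medians 55 moved by less than their spread. The cause was not tested for any of the changes below, apart from settings that use fewer cells, libraries or members.

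DESeq2 called 36 members higher in GABAergic neurons, 5 in astrocytes and 9 in OPC, and 2 lower in oligodendrocytes against OPC. Relative to ribosomal protein UMIs it called 28 in GABAergic neurons, 55 in astrocytes, 71 in microglia, 64 in endothelial cells and 49 in oligodendrocytes against OPC. With library size only, 27 were higher in GABAergic neurons and 8 in OPC, and 34 higher and 3 lower in oligodendrocytes against OPC. Without members that have paralogs or pseudogene symbols, 1 was higher in GABAergic neurons, 0 in astrocytes and 3 in OPC, and 0 were lower in microglia and endothelial cells. With no library block, 1 was higher in GABAergic neurons, 29 lower in astrocytes, and 3 higher and 19 lower in OPC; per ribosomal protein UMI 0 were called in GABAergic neurons, 13 in astrocytes, 25 in microglia, 21 in endothelial cells, 13 in OPC and 10 in oligodendrocytes against OPC. With no low-count filter, 0 were higher in GABAergic neurons, 2 higher in astrocytes and 2 lower in endothelial cells, and per ribosomal protein UMI 0 were called in GABAergic neurons, 20 in OPC and 11 in oligodendrocytes against OPC.

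The stricter gate, which keeps few neurons and OPC, left 0 higher in GABAergic neurons, 6 higher and 0 lower in astrocytes, 1 higher and 1 lower in OPC, and 0 lower in microglia, endothelial cells and oligodendrocytes against OPC. Per ribosomal protein UMI it left 0, 5, 20, 16, 2 and 1 for GABAergic neurons, astrocytes, microglia, endothelial cells, OPC and oligodendrocytes against OPC. Signs turned for Rpl10 (0.12), Rpl39 (0.078) and Rps4x (0.10) in astrocytes, Rpl7l1 (-0.0061) in OPC, and, per ribosomal protein UMI, Rpl36al (0.045) in OPC and Rpl22l1 (0.21) and Rps27 (-0.010) in oligodendrocytes against OPC. Class shares became 3.16% in glutamatergic and 4.15% in GABAergic neurons, 2.94% in astrocytes, 5.05% in OPC, 4.82% in oligodendrocytes and 10.99% in smooth muscle cells. Library medians became -0.065, 0.24 and 0.30 in glutamatergic neurons (estrus over diestrus, estrus over male, diestrus over male), -0.19 for estrus over male in GABAergic neurons and 1.59 in OPC, and 0.013 for diestrus over male in astrocytes. An intermediate gate, chosen after seeing the data, gave 0.033, 0.042 and 0.015 in glutamatergic neurons and a share of 9.88% in smooth muscle cells.

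Corrected for gene length, library medians were -0.24, -0.21 and -0.0092 in glutamatergic neurons and -0.23, -0.20 and 0.023 in GABAergic neurons. Microglia had 0.033 for estrus over male and 0.016 for diestrus over male, and in the latter pair astrocytes had 0.040, OPC 0.15 and endothelial cells 0.021. A median-of-ratios scale gave -0.0044, 0.066 and 0.061 in glutamatergic neurons, 0.010 in GABAergic neurons and 0.016 in OPC for diestrus over male, and 0.0095 in endothelial cells for estrus over diestrus. No CPM minimum gave 0.029 and 0.098 in glutamatergic neurons for the estrus pairs, and leaving out the top 5% of cells by UMIs gave -0.00027, 0.063 and 0.062 and a smooth muscle share of 9.70%. As medians over cells, shares were 3.40% in glutamatergic and 4.14% in GABAergic neurons, 4.67% in oligodendrocytes, 6.68% in microglia and 9.87% in smooth muscle cells. With mitochondrially encoded UMIs kept they were 3.42%, 4.25% and, in smooth muscle cells, 8.34%.

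Leaving out 1 library at a time, 1 to 8 members were higher in GABAergic neurons, 1 to 4 higher and 24 to 49 lower in astrocytes, and 3 to 12 higher and 16 to 26 lower in OPC. Per ribosomal protein UMI the range was 0 to 4 in GABAergic neurons, 11 to 23 in astrocytes, 27 to 46 in microglia, 20 to 39 in endothelial cells, 15 to 29 in OPC and 8 to 20 in oligodendrocytes against OPC. No paired analysis was possible because each group is 1 library, so groups share no replicates beyond a number; the library was a block in the comparisons of classes. Depth limits Rpl3l, Rpl39l and Rpl10l, and the smaller classes: library medians in border macrophages use all genes above the minimum, of which few remain.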

Other observations

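Some classes with fewer than 50 cells in a library gave the highest ribosomal protein shares. T cells held 33.4%, 32.7% and 40.6% of nuclear UMIs in ribosomal protein transcripts in estrus, diestrus and male (20, 8 and 18 cells), and B cells 24.6%, 24.4% and 28.7% (14, 10 and 22 cells), so each library had lymphocytes above every class with more cells. Neuroblasts held 12.5% in diestrus and 14.6% in male (30 and 38 cells), fibroblasts 5.55%, 9.09% and 10.3% (29, 76 and 47 cells), ependymal cells 7.35% in diestrus (69 cells) and neutrophils 4.23% and 3.68% in estrus and male (4 and 6 cells). These are sums over few cells and were not tested.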
